A study of Mus musculus with 6 samples.

Results

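The Piezo, TRP and polycystin channels described here are 10 genes chosen by name as known or proposed mechanosensors: Piezo1 and Piezo2, which the count table lists under the older symbols Fam38a and Fam38b, the TRP channel genes Trpv2, Trpv4, Trpc1, Trpc6, Trpm4 and Trpm7, and the polycystin genes Pkd1 and Pkd2. All 10 were found among the 23337 genes of the table. RNA had been sequenced from primary sinusoidal endothelial cells of mouse liver, purified with magnetic beads, cultured in serum-containing medium, plated on collagen IV and then starved of serum. The stretch group (replicates 1, 2 and 4; n = 3) was exposed to cyclic stretch of 4% at 1 Hz on a Flexcell device, and the control group (replicates 2, 3 and 4; n = 3) was not stretched. The sources used here do not state mouse strain, sex, age, how long stretch lasted or whether replicates were separate isolations, so the p-values measure the spread between these samples, which may be technical.

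Piezo proteins are trimeric cation channels that open when the membrane is tensed, and Piezo1 is a sensor of shear and stretch in endothelium. TRP channels are tetrameric cation channels that respond to varied cues, among them swelling, calcium and lipid messengers. Polycystin-1, the product of Pkd1, is a large receptor-like membrane protein that pairs with polycystin-2, a channel subunit of the TRP superfamily encoded by Pkd2, in the primary cilium and other membranes. Calcium that enters through such channels acts through calmodulin and calcineurin, among other routes.

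Expression of the 10 channel genes was led by Piezo1, with Pkd2, Pkd1 and Trpm7 next, and no member differed between stretched and control cells at an adjusted p of 0.05. Of the 10 members, all of which passed the filter on low counts, 0 were called higher and 0 lower by edgeR's quasi-likelihood test with Benjamini-Hochberg adjustment, where 44.0% of the 14222 genes tested were called (21.4% higher and 22.6% lower). At an unadjusted p of 0.05 the count of members was 1, Pkd1. DESeq2 called 1 member (Pkd1, lower), where it called 41.3% of its genes, and limma-voom called 0, where it called 43.3%. The authors' deposited table gives 1 member (Pkd1) an FDR under 0.05, as it does 5712 (24.5%) of its 23336 genes. That share is over all genes listed, with no filter on low counts, so it cannot be set directly against the shares above. The median absolute log2 fold change was 0.19 for the members, against 0.26 for all genes tested, and the median signed value was 0.05 for the members and -0.015 for all genes tested. The median signed value of all genes was -0.11 with library size alone as scaling, and 2091 genes were then called higher and 4299 lower, against 3040 higher and 3221 lower with TMM scaling.

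Total gene counts were between 58503669 and 68489956 in stretch libraries and between 48948948 and 57923937 in control libraries. Sinusoidal markers such as Stab2 and Lyve1 were abundant, and the 14 sinusoidal markers summed to 8237 to 9628 CPM in stretch and 10680 to 12080 CPM in control libraries (counts scaled by TMM library size), with 9 called lower. Of 10 general endothelial markers 7 were called lower (8774 to 9473 CPM in stretch, 9556 to 10760 CPM in control). Hepatocyte markers (12 of 14 called higher) summed to 913.2, 190.6 and 190.7 CPM in stretch replicates 1, 2 and 4, and to 67.4 to 127.5 CPM in control. Macrophage markers (11 of 16 called higher) summed to 116.5 to 161.2 CPM in stretch and 80.82 to 96.01 CPM in control libraries, with Timd4 at no count in 4 of the 6 libraries. Markers of stellate cells, fibroblasts and smooth muscle (1 of 15 called, higher) lay between 92.95 and 153.5 CPM in stretch and between 117.7 and 133 CPM in control, and 6 cholangiocyte markers (3 called higher, 1 lower) at 152.8 to 177.1 CPM in stretch and 94.76 to 122 CPM in control. The 6 lymphocyte and 5 neutrophil markers each summed to under 1 CPM in every library, with Cd3g, Ms4a1, Nkg7, S100a9 and Mpo at 0 throughout. In such bulk samples fewer cells of a type and less RNA per cell cannot be told apart.

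Promoter windows were compared because the members' levels span a wide range. RefSeq windows of 300 bases (GRCm38.p6, mostly upstream of the transcript start and ending just inside it) matched 8 of the 10 members, with Fam38b and Trpm4 unmatched. The dinucleotide CG, whose methylation is linked to silencing, was counted in each; it reads the same on both strands. The windows of Piezo1 (chr8:122551280-122551579, minus strand) and Trpv4 (chr5:114658372-114658671, minus strand) are printed as a pair of CG-dense promoters of genes at very different levels, and that of Pkd2 (chr5:104459207-104459506, plus strand) as one of a well expressed gene whose CG number is close to the median of 8 per gene. Capitals mark CG, and each runs 5′ to 3′ along the gene.
Piezo1: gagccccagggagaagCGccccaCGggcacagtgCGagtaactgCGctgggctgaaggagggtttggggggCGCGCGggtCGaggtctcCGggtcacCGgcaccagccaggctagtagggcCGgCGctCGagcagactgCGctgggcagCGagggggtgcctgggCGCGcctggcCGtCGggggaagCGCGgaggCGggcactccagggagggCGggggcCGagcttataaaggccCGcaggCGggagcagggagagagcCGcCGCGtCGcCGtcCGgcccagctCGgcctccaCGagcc
Trpv4: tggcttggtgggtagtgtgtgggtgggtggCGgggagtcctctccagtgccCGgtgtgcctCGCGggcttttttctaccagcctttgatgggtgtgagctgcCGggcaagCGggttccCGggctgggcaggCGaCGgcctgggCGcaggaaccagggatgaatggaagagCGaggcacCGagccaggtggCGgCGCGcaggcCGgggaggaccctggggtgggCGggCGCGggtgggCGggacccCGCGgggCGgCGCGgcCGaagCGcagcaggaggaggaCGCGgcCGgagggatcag
Pkd2: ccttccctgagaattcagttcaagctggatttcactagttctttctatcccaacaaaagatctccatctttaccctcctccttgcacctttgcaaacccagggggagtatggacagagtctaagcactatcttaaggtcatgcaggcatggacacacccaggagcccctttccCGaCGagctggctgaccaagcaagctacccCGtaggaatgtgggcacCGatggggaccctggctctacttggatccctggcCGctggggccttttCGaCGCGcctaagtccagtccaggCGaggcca

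The Piezo1 window held 34 CG dinucleotides, the Trpv4 window 30 and the Pkd2 window 9. Those of Pkd2 all lie in the later part of its window, toward the transcript start, and bases beyond the window were not counted. Of the 27025 genes with a window, 8.62% had at least 34, 12.9% at least 30 and 48.1% at least 9, counting each gene's richest window. Trpm7 had 35, Trpc1 22, Pkd1 18 and Trpc6 17, and the 3 alternative windows of Trpv2 had 2, 2 and 7. CG number did not follow the order of expression given next: Trpc1 and Trpc6, the least abundant members, had more than Pkd2 or Trpv2.

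Levels are compared between genes only on the deposited RPKM scale, which divides by gene length. Piezo1, the pore-forming channel itself, was the most abundant member, at 41.5, 41.8 and 41.6 RPKM in stretch replicates 1, 2 and 4 and 42.4, 44.7 and 42.2 RPKM in control replicates 2, 3 and 4. It made up 42.6 ± 1.19% of the members' summed RPKM in stretch and 40.9 ± 0.82% in control libraries (SD, n = 3 per group). Its mean level over the 6 libraries was 2.42 times that of Pkd2, the next in order, and was higher than that of 92.6% of the genes in the table. Pkd2 averaged 17.5 RPKM, Pkd1 14.6 and Trpm7 13.9 over the 6 libraries, and the ranges of neighbours among these 3 overlapped. Trpv2 followed at 8.90 RPKM and Trpm4 at 3.18 RPKM, each with a range apart from its neighbours. The remaining 4 members were scarce: Trpv4 averaged 0.60 RPKM, Piezo2 0.24, Trpc1 0.14 and Trpc6 0.14, and the ranges of Piezo2 and Trpc1, and of Trpc1 and Trpc6, overlapped. Piezo1, Pkd2, Pkd1 and Trpm7 together held 87.0 ± 0.33% of the members' summed RPKM in stretch and 87.0 ± 0.96% in control libraries (SD, n = 3 per group). With the exonic length of GENCODE M21 in place of the table's length, an alternative added after the data were seen, Pkd1 (11.9) came before Pkd2 (8.96) and Trpc6 (0.0895) before Trpc1 (0.0542), and the other members kept their places.

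**Figure D1:**
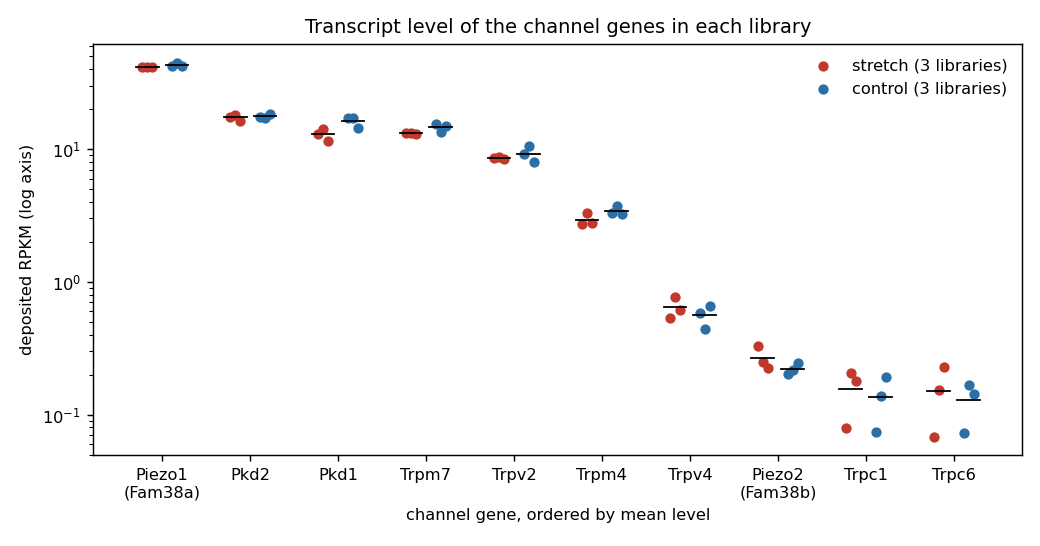
Deposited RPKM (log axis) of each channel gene in the 3 stretch and 3 control libraries, with horizontal bars at the group means and genes ordered by mean level. Piezo1 lies between 41.5 and 44.7 RPKM in every library, Pkd2, Pkd1, Trpm7 and Trpv2 between 7.96 and 18.2 RPKM, and Trpc1 and Trpc6 below 0.23 RPKM.

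Piezo1 (Fam38a, chromosome 8, 122481698 to 122551329, GRCm38, minus strand) had 21430, 25420 and 21634 counts in stretch replicates 1, 2 and 4 and 21947, 19414 and 19185 counts in control replicates 2, 3 and 4. Scaled to library size these were 384.3, 374.5 and 384.7 CPM in stretch and 371.6, 383.8 and 358.6 CPM in control libraries. The ranges overlapped, and the stretch libraries lay within the upper part of the control range or just above it. The log2 fold change was 0.04 ± 0.05 (SE; edgeR adjusted p = 0.535), and its 95% interval ran from 0.956-fold to 1.10-fold. With library size alone as scaling the sign turned (log2 fold change -0.05, adjusted p = 0.33), and on the deposited RPKM scale every stretch library was below every control library. The same was so of Pkd1 and Trpm7, and of no other member; the RPKM ranges of 56.4% of all genes tested did not overlap. The deposited span shares its last 1395 bases with Ctu2, a tRNA thiolation gene on the opposite strand, which rose 1.18-fold (86.4 ± 3.99 CPM in stretch and 73.0 ± 0.85 CPM in control, SD, n = 3 per group; edgeR adjusted p = 0.00379). In GENCODE M21 the pair shares 2441 exonic bases, 24.6% of those of Piezo1 and 47.3% of those of Ctu2. No source used here states how strand was treated in counting, and reads of the shared stretch cannot be told apart between the genes.

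Piezo2 (Fam38b, chromosome 18, 63010213 to 63387183), the touch and proprioception channel of sensory neurons, was rare in both groups. It had 221, 197 and 153 counts in stretch replicates 1, 2 and 4 (3.96, 2.90 and 2.72 CPM) and 136, 123 and 145 counts in control replicates 2, 3 and 4 (2.30, 2.43 and 2.71 CPM). It was the 1 member whose CPM ranges did not overlap, with stretch replicate 4 and control replicate 4 nearly equal, where the ranges of 55.9% of all genes tested did not overlap. The log2 fold change was 0.36 ± 0.19 and did not pass (SE; edgeR adjusted p = 0.153; 95% interval 0.955-fold to 1.74-fold). Its highest library, stretch replicate 1, was also the library with the most hepatocyte and macrophage marker RNA, whose part in the value was not tested, and without that library the log2 fold change was 0.19 (edgeR adjusted p = 0.426). Within a library Piezo1 exceeded Piezo2 by 127 to 185 times in stretch and by 173 to 211 times in control on the RPKM scale. The table lists the predicted gene Gm5506 over a span that covers Piezo2 and reaches far beyond it (48045335 to 150248873). Gm5506 had a log2 fold change of 0.12 that did not pass (edgeR adjusted p = 0.258), and GENCODE M21 gives the pair no shared exon.

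Pkd1 was the member with the smallest adjusted p. The gene (chromosome 17, 24549950 to 24596514) had 209.0, 219.8 and 182.8 CPM in stretch replicates 1, 2 and 4 and 260.2, 255.2 and 212.4 CPM in control replicates 2, 3 and 4, from 10279 to 14922 counts in stretch and 11366 to 15368 counts in control libraries. The groups overlapped only through stretch replicate 2 and control replicate 4. The log2 fold change was -0.25 ± 0.09 (SE; edgeR adjusted p = 0.0552; 95% interval 0.726-fold to 0.973-fold), so the call missed the threshold. The authors' deposited table gives the same log2 fold change, -0.25, with an FDR of 0.045, and DESeq2 gave an adjusted p of 0.0224. Leaving out control replicate 4 gave an edgeR adjusted p of 0.0155, leaving out stretch replicate 2 gave 0.0454, and it was between 0.0829 and 0.187 without each of the other 4 libraries. The adjusted p was 0.0158 with library size alone and 0.0491 with no filter on low counts. Its direction was the same in each of these settings.

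Pkd2 (chromosome 5, 104459457 to 104505819) had 102.6, 102.7 and 96.2 CPM in stretch replicates 1, 2 and 4 and 97.5, 94.1 and 98.3 CPM in control replicates 2, 3 and 4. The ranges overlapped, and the log2 fold change, 0.06 ± 0.05, did not pass (SE; edgeR adjusted p = 0.355; 95% interval 0.967-fold to 1.12-fold); its sign turned with library size alone (-0.04). The RPKM ratio of Pkd2 to Pkd1, which no scaling of libraries can change, was 1.33, 1.27 and 1.43 in stretch replicates 1, 2 and 4 and 1.02, 1.00 and 1.26 in control replicates 2, 3 and 4. Every stretch library was above every control library, though stretch replicate 2 and control replicate 4 were nearly equal. The exact two-sided permutation p was 0.1 (3 against 3 libraries), the smallest this design can give, and 0.267 after adjustment over the 8 ratios computed, which were chosen after the values were seen. The ratio of Pkd1 to Piezo1 was 0.276 to 0.34 in stretch and 0.344 to 0.406 in control libraries. That of Piezo1 to Ctu2, whose exons overlap, was 1.58 to 1.69 in stretch and 1.84 to 1.98 in control libraries. In both the ranges were also apart, with the same permutation p and adjusted p. Control replicate 4, the control library nearest to the stretch group, had the lowest Pkd1 and the highest Pkd2 of its group.

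**Figure D2:**
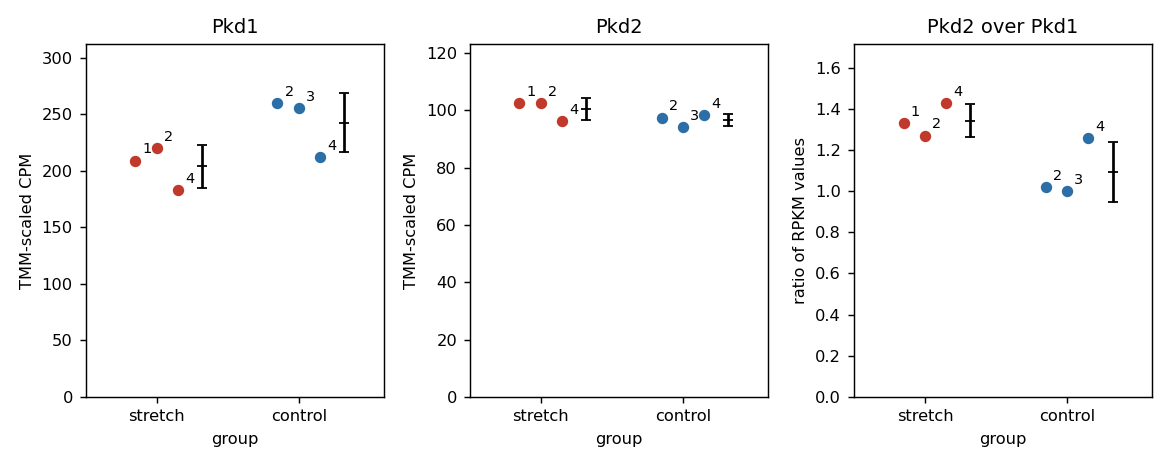
TMM-scaled CPM of Pkd1 and of Pkd2, and the ratio of their RPKM values, in each stretch and control library; points carry the replicate number and the bars to their right show mean ± SD (n = 3 per group). Pkd1 lies at 182.8 to 219.8 CPM in stretch and 212.4 to 260.2 CPM in control, Pkd2 overlaps, and the ratio is 1.27 to 1.43 in stretch and 1.00 to 1.26 in control.

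Pkd1 ends tail to tail with Tsc2, which encodes the tuberin subunit of a growth-control complex and lies on the opposite strand. Their deposited spans share 578 bases, and in GENCODE M21 the pair shares 693 exonic bases, 3.98% of those of Pkd1. Tsc2 fell 1.26-fold (100 ± 3.10 CPM in stretch and 125.6 ± 2.30 CPM in control, SD, n = 3 per group; edgeR adjusted p = 0.00057). The RPKM ratio of Pkd1 to Tsc2 was 0.886 ± 0.104 in stretch and 0.838 ± 0.0854 in control libraries and overlapped (SD, n = 3 per group), with a p of 0.5 in the exact two-sided permutation test (0.571 adjusted over the 8 ratios). How many reads of the shared bases were counted for either gene was not tested.

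Trpm7, a magnesium, zinc and calcium permeable channel fused to a kinase (chromosome 2, 126791558 to 126876261), had 106.3, 103.7 and 104.9 CPM in stretch replicates 1, 2 and 4 and 117.8, 100.2 and 109.9 CPM in control replicates 2, 3 and 4. All 3 stretch values fell inside the control range. The log2 fold change was -0.06 ± 0.06 (SE; edgeR adjusted p = 0.467; 95% interval 0.872-fold to 1.06-fold). Trpm4, which is opened by calcium and passes monovalent cations (chromosome 7, 45303155 to 45333780), had 13.16, 15.22 and 13.21 CPM in stretch replicates 1, 2 and 4 and 14.99, 16.49 and 14.26 CPM in control replicates 2, 3 and 4. Stretch replicates 1 and 4 were below the control range and stretch replicate 2 was within it. The log2 fold change was -0.14 ± 0.09 (SE; edgeR adjusted p = 0.248; 95% interval 0.791-fold to 1.05-fold).

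Trpv2, a calcium-permeable channel also known from macrophages (chromosome 11, 62574486 to 62600305), had 26.6, 26.2 and 26.0 CPM in stretch replicates 1, 2 and 4 and 27.1, 30.1 and 22.7 CPM in control replicates 2, 3 and 4. The stretch libraries lay close together, inside a much wider control range. Its log2 fold change was -0.02 ± 0.09 (SE; edgeR adjusted p = 0.901; 95% interval 0.851-fold to 1.15-fold). Summed macrophage markers, given above, did not overlap and were higher in stretch, and their part in the Trpv2 value was not tested. Trpv4, which opens on swelling and to lipid messengers and relaxes vessels through endothelium (chromosome 5, 114622154 to 114658421), had 109, 184 and 126 counts in stretch replicates 1, 2 and 4 (1.955, 2.711 and 2.241 CPM) and 118, 75 and 117 counts in control replicates 2, 3 and 4 (1.998, 1.483 and 2.187 CPM). Stretch replicate 1 lay among the controls, and the log2 fold change was 0.29 ± 0.22 (SE; edgeR adjusted p = 0.325; 95% interval 0.863-fold to 1.72-fold).

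Trpc1, a subunit of receptor-operated and store-operated channels (chromosome 9, 95706629 to 95750358), had 15, 46 and 34 counts in stretch replicates 1, 2 and 4 and 14, 22 and 32 counts in control replicates 2, 3 and 4. Trpc6, a channel opened by diacylglycerol (chromosome 9, 8544142 to 8680741), had 14, 37 and 47 counts in stretch replicates 1, 2 and 4 and 15, 29 and 26 counts in control replicates 2, 3 and 4. Both were lowest in stretch replicate 1 and control replicate 2 of their groups. Their log2 fold changes were 0.30 ± 0.47 and 0.32 ± 0.50 (SE; edgeR adjusted p = 0.644 and 0.638). At this depth a change of up to 2.60-fold for Trpc1 or 2.74-fold for Trpc6 was within the 95% intervals, and for Trpc6 the sign turned without stretch replicate 4 (-0.12).

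The precision differed widely between members. For Piezo1, Pkd2, Trpm7 and Trpv2 the 95% interval lay within a change of 1.2-fold in either direction, and for Trpm4 and Pkd1 it lay within 1.5-fold. The intervals of Piezo2, Trpv4, Trpc1 and Trpc6 reached beyond a rise of 1.5-fold, so a rise of that size stayed within them. In sign, 6 members were higher and 4 lower in stretch, and with library size alone Piezo1 and Pkd2 also turned lower.

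**Figure D3:**
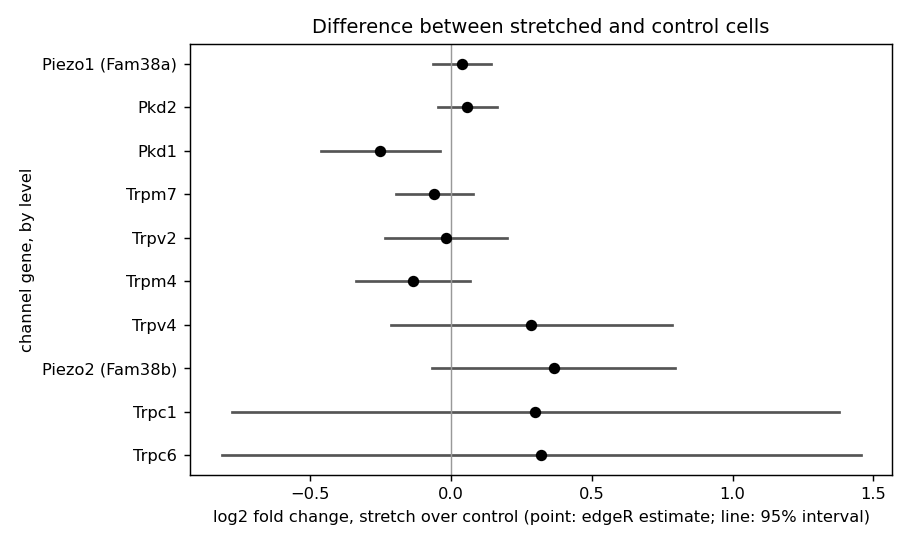
Log2 fold change of stretch over control for each channel gene, ordered by level, with the edgeR estimate as a point and its 95% interval as a line. Of the 10 intervals, that of Pkd1 (-0.46 to -0.04) lies apart from 0 before adjustment, and those of Trpc1 and Trpc6 are the widest.

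Other members of the TRP and polycystin families were mostly below the filter on low counts. Of 25 listed genes 24 were in the table and 7 passed the filter. The other 17 had at most 21 counts in any library, the maximum being in Trpv3, and Trpc7, Trpv5 and Trpm8 had 0 counts throughout. Of the 7 tested, 1 rose, 4 fell and 2 did not pass, where 44.0% of all genes tested were called (21.4% higher and 22.6% lower). Mcoln1, the lysosomal TRP channel mucolipin-1, fell 1.19-fold (65.4 ± 1.70 CPM in stretch and 77.7 ± 2.21 CPM in control, SD, n = 3 per group; edgeR adjusted p = 0.00262). Trpc2 fell 1.49-fold (edgeR adjusted p = 0.0096), but GENCODE M21 places 97.5% of its exonic bases also in the readthrough gene Xntrpc on the same strand, so its reads are uncertain. Pkd1l3, a polycystin-1 relative known from taste cells, rose 1.22-fold (edgeR adjusted p = 0.0108) and lost the call with library size alone (adjusted p = 0.0648). In GENCODE M21, 190 of its exonic bases (2.69%) also belong to the opposite-strand gene Ist1, a symbol absent from the counts. The part of Ist1 reads in the Pkd1l3 value was not tested.

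Among 14 other genes listed for channels known or proposed to open on stretch or swelling, 9 were tested. Of these 5 rose, 1 fell and 3 had no call. Among all genes tested 21.4% were called higher and 22.6% lower. Tmc1, Tmc2, Kcnk2, Kcnk4 and Kcnk10 did not pass the filter. Of the 5 volume-regulated anion channel genes 3 passed: Lrrc8c rose 1.47-fold (332.5 ± 20.1 CPM in stretch and 226.5 ± 10.9 CPM in control, SD, n = 3 per group; edgeR adjusted p = 0.000203), Lrrc8a, the obligatory subunit, rose 1.24-fold, and Lrrc8b rose 1.31-fold. Lrrc8d (35.9 ± 2.08 CPM in stretch and 34.8 ± 0.97 CPM in control) and Lrrc8e (0.653 ± 0.211 CPM in stretch and 0.350 ± 0.111 CPM in control) did not pass (SD, n = 3 per group; edgeR adjusted p = 0.554 for Lrrc8d and 0.0969 for Lrrc8e), and both are named after their values were seen. For each of the 3 that rose every stretch library was above every control library, where the CPM ranges of 55.9% of all genes tested did not overlap. In GENCODE M21, 66.2% of the exonic bases of Lrrc8a also belong to the same-strand gene Gm28035, so the reads of Lrrc8a are uncertain. Tmem63c, of the OSCA and TMEM63 family, rose 3.22-fold from a low level, with 32, 30 and 17 counts in stretch replicates 1, 2 and 4 and 8, 7 and 7 counts in control replicates 2, 3 and 4 (edgeR adjusted p = 0.0109). Tmem87a was the other gene that rose and Tmem63a the 1 that fell, both named after their values were seen. Without control replicate 4 the count of genes that fell was 0.

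Genes whose products bind or regulate these channels gave 1 that rose, 4 that fell and 9 that did not pass, of 14 tested; the called share is below the 44.0% of all genes tested. Mdfic, an auxiliary subunit of Piezo channels, fell 1.31-fold, with 334.3 ± 14.3 CPM in stretch and 439 ± 14.9 CPM in control libraries (SD, n = 3 per group; log2 fold change -0.39 ± 0.05; edgeR adjusted p = 0.000497). The lipid kinase gene Pikfyve, whose product makes the lipid that opens mucolipins, fell 1.29-fold. Stim1, the endoplasmic reticulum calcium sensor that couples to Trpc1 and Orai channels, fell 1.17-fold. Homer1, a scaffold of Trpc channels, rose 1.64-fold (8.95 ± 0.65 CPM in stretch and 5.46 ± 1.00 CPM in control, SD, n = 3 per group).

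Of 19 tested genes of calcium release, entry and removal, 2 rose, 4 fell and 13 did not pass, a smaller called share than the 44.0% of all genes tested, and 1 rose without control replicate 2 or without control replicate 3. Plcg1, the phospholipase that makes the messengers for calcium release, fell 1.58-fold (99.5 ± 1.59 CPM in stretch and 157.5 ± 8.75 CPM in control, SD, n = 3 per group; edgeR adjusted p = 7.18e-05), the entry channel gene Orai3 fell 1.36-fold, and Plcb3 fell 1.19-fold. Atp2a2, the calcium pump of the endoplasmic reticulum, rose 1.21-fold. Of 19 calmodulin, calcineurin and NFAT genes, 4 rose, 2 fell and 13 had no call; here too the called share is below that of all genes tested. Rcan1, a calcineurin inhibitor that calcineurin signalling itself induces, rose 1.92-fold (106.2 ± 6.22 CPM in stretch and 55.4 ± 2.96 CPM in control, SD, n = 3 per group; edgeR adjusted p = 4.97e-05). The calcineurin subunit gene Ppp3cb rose 1.15-fold and lost its call with library size alone (adjusted p = 0.0713), while the calcium-dependent kinase gene Camk2g fell 1.66-fold.

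Of 20 genes of the primary cilium, the organelle where polycystins are best known to act, 13 fell, 1 rose and 6 did not pass, beside 22.6% lower and 21.4% higher among all genes tested. The list's median log2 fold change was -0.28, against -0.015 for all genes tested. This list, like the others, was chosen with earlier results of these data known, so these values describe it and do not test it. The ciliary motor gene Kif3a fell 1.48-fold, the intraflagellar transport gene Ift172 1.35-fold and Tulp3, which carries membrane receptors into the cilium, 1.19-fold (edgeR adjusted p between 0.000584 for Ift172 and 0.00252 for Tulp3). Kif3a had 63.9 ± 0.72 CPM in stretch and 94.3 ± 13.7 CPM in control libraries (SD, n = 3 per group). Without stretch replicate 4 the number that fell was 8, and against a minimum change of 1.2-fold it was 5. Among all genes tested 2575 of 14544 and 1327 of 14222 fell in these 2 settings, against 3221 of 14222 in the main fit. Summed hepatocyte, macrophage and cholangiocyte markers were higher in every stretch library than in any control library. Summed sinusoidal and general endothelial markers were lower in every stretch library than in any control library. The part of these shifts in the counts of these lists was not tested.

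**Figure D4:**
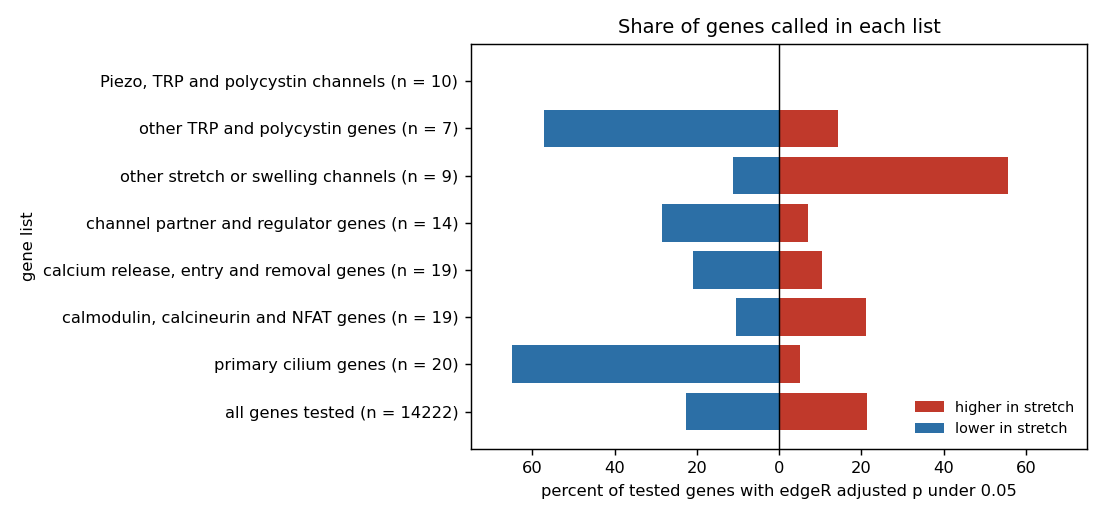
Percent of the tested genes of each list that passed an edgeR adjusted p of 0.05, to the right for genes higher in stretch and to the left for genes lower in stretch, with all 14222 genes tested in the bottom row. The channel members have no bar (0 of 10), 13 of 20 cilium genes were lower, and all genes tested had 21.4% higher and 22.6% lower.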

How the data were processed

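The authors deposited raw counts per gene and RPKM for 6 libraries of primary cells. TopHat2 (2.1.0), featureCounts and edgeR appear in the submitters' processing notes, as do GRCm38 and mm10. The sources used here do not state which tool made which values, the annotation or how strand was treated. RPKM was made by the authors with a length per gene that is a multiple of 3 in 37.8% of genes, so it is not coding sequence alone. Per the file headers, the authors' own comparison gives each gene a log2 fold change, a likelihood ratio (used as a score), a p-value and an FDR. Low counts (1 to 10) were even numbers in 67.2% to 69.9% of genes in a library, and counts from 1000 up in 49.6% to 50.9%; whether mates of a pair were counted separately was not tested.

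The counts were tested with edgeR 4.0.16 (R 4.3.3): TMM scaling, filterByExpr defaults, the quasi-likelihood F test for group and Benjamini-Hochberg adjustment over 14222 of 23337 genes; an adjusted p under 0.05 was a call. SE is the log2 fold change over the square root of F, and 95% intervals use the moderated total degrees of freedom of that test. Log2 ratios were compared by exact two-sided permutation in scipy 1.17.1. Alternatives used limma 3.58.1 and DESeq2 1.42.0 and are given in the closing section. The steps were tested on simulated data. The members and gene lists were chosen with earlier results of these data known. All members were named, and in each other list up to 4 called genes with the smallest p, or the 2 with the smallest p where fewer than 2 were called; genes overlapping a member or within 1000 bases of it are also named, and 3 genes that this rule selects are not reported here. Pkd1l1 and Mcu were not analysed here. Shared exons come from GENCODE M21 (GRCm38).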

Additional observations from a re-analysis of the deposited data

How the results depend on the processing

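The log2 fold changes of the 10 members were recomputed under 138 combinations of member and setting; 125 kept their direction and side of the threshold, 6 (all Pkd1) passed it and 7 changed sign. Sign changes were Fam38a (-0.05) and Pkd2 (-0.04) with library size alone, Trpv2 with RLE factors and with DESeq2 (0.00 each), with the replicate block (0.07) and without control replicate 3 (0.08), and Trpc6 without stretch replicate 4 (-0.12); with single libraries left out Trpv2 ran between -0.12 and 0.08 and Trpc6 between -0.12 and 0.67. The number of members called lower was 1 with library size alone, no filter, DESeq2 and the replicate block, and 0 to 1 with single libraries left out. Replicate numbers 2 and 4 occur in both groups, the deviations of the same-numbered libraries correlated at 0.212 and 0.114, and 2 pairs with no label for a shared isolation do not establish pairing; with the block the adjusted p was 0.0104 for Pkd1 and 0.0857 for Tmem63c, and 3 other stretch or swelling channels and 0 cilium genes were called higher. With library size alone 0 other TRP genes, 1 calcium handling gene, 2 calmodulin and NFAT genes and 0 cilium genes were higher, and 7 partner genes, 9 calcium handling genes and 7 calmodulin and NFAT genes were lower. Against a fold of 1.2 (glmTreat) 1210 genes were called higher and 1327 lower. By list these were 0 higher and 1 lower for other TRP genes and 2 and 0 for other stretch or swelling channels. They were 1 and 1 for partners and 0 and 2 for calcium handling. For calmodulin and NFAT genes they were 2 and 1, and for cilium genes 0 and 5. With single libraries left out, 0 to 1 other stretch or swelling channels and 8 to 13 cilium genes were lower, and 1 to 3 calcium handling genes higher. The cause of these shifts was not tested. The log2 ratio of Pkd2 to Pkd1, stretch minus control, was 0.31 and stayed between 0.25 and 0.41 with single libraries left out.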
